A study of Mus musculus with 6 samples.

Results

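The mouse mitochondrial genome encodes 13 proteins, 2 ribosomal RNAs (rRNAs) and 22 transfer RNAs (tRNAs), and the transcripts of these 37 genes were compared between neurons given microglial and neurons given astrocytic apolipoprotein E (apoE) particles. Members were all symbols that begin with mt- and whose value was not 0. They were 34 of the 37 mitochondrial symbols, out of 26562 symbols with a value among the 47593 listed. All 13 protein genes, both rRNA genes and 19 tRNA genes had a value, while mt-Tf, mt-Tv and mt-Td, the tRNAs for phenylalanine, valine and aspartate, were listed at 0 in all 6 libraries. The cells were wild-type (WT) primary hippocampal neurons held in Neurobasal with B27 and GlutaMAX. On culture day 10 they received A-apoE (astrocytic apoE particles) or M-apoE (microglial apoE particles) for 24 h at a dose of 6 µg/mL, after which BGI sequenced their total RNA by DNBSEQ. There were 3 samples with each kind of particle. Untreated neurons were not analysed here, and each difference below is microglial minus astrocytic apoE. The labels name no separate cultures or animals for the 3 samples of a group, so p-values measure only the spread between these samples, which may be technical.

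Mitochondrial DNA is a small circle that is copied from both strands into long transcripts by a dedicated single-subunit RNA polymerase. Enzymes then cut the tRNAs out, which frees the rRNAs and mRNAs that lie between them, and most mRNAs receive a short poly(A) tail. The encoded proteins are core subunits of respiratory complexes I, III and IV and of the ATP synthase (complex V), which assemble with many subunits encoded in the nucleus. The rRNAs and tRNAs serve the ribosomes inside the organelle. Neurons rely heavily on this system because synaptic transmission and ion pumping consume much ATP.

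The authors deposited 1 log2 value per gene and sample. Only genes with a value of 3.322 or more (log2 of 10) in 3 or more libraries were tested. These were 15055 genes and included 24 members: 13 protein genes, 2 rRNAs and 9 tRNAs. Of the 24, mt-Tm had the lowest value, 4.05, so no member was tested only through the group in which it was higher. The read depth is unknown. Summed as 2^value, the linear form of the deposited scale, the libraries came to 18060473 to 18337624 each, which is not a number of reads. Neuronal markers summed to 52635 to 53095 on this scale with astrocytic and to 51555 to 52812 with microglial apoE, and of the 7 markers Rbfox3, Map2, Tubb3, Snap25, Syp, Slc17a7 and Gad1 none was at 0. Gad1 was called higher with microglial apoE (0.25, adjusted p = 3.4e-08), and Map2 (-0.10, adjusted p = 0.0055) and Rbfox3 (-0.08, adjusted p = 0.038) were called lower. Astrocyte markers were also present, at 56833 to 57667 and at 48811 to 49697, and 6 of 7 were lower with microglial apoE, with Slc1a3 higher. Markers of dividing cells summed to 1564 to 1625 and to 947 to 957, with 4 of 4 lower. Oligodendrocyte lineage markers summed to 5970 to 6266 and to 6133 to 6305, with 1 of 7 higher and 1 lower. Microglial markers summed to 157 to 159 and to 160 to 162, and endothelial markers to 106 to 109 and to 104 to 107, with 0 called by limma among the 5 and 1 of them that were tested (2 and 0 at an unadjusted p under 0.05). No marker of any list was at 0. The part of these other cells in the results below was not tested. In bulk RNA, fewer cells of a type and less RNA per cell cannot be told apart.

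All classes of mitochondrial transcript were at a lower mean level with microglial apoE, and the protein genes had the largest median difference. The 13 mRNAs made up 7.32%, 6.88% and 5.93% of the summed 2^value in astrocytic replicates 1, 2 and 3, against 5.23%, 5.28% and 5.25% with microglial apoE. The 3 microglial libraries were nearly alike, whereas the astrocytic libraries were spread out and the third came closest to the microglial ones. The group means were 6.71% ± 0.711 and 5.25% ± 0.0224 (SD, n = 3). The 2 rRNAs took 0.588%, 0.575% and 0.525% against 0.471%, 0.487% and 0.484%, again without overlap between the groups. The 19 tRNAs together took 0.00911% ± 0.000632 and 0.00808% ± 0.000345 (SD, n = 3). For all members together the shares were 7.28% ± 0.745 and 5.74% ± 0.0301 (SD, n = 3).

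**Figure D1:**
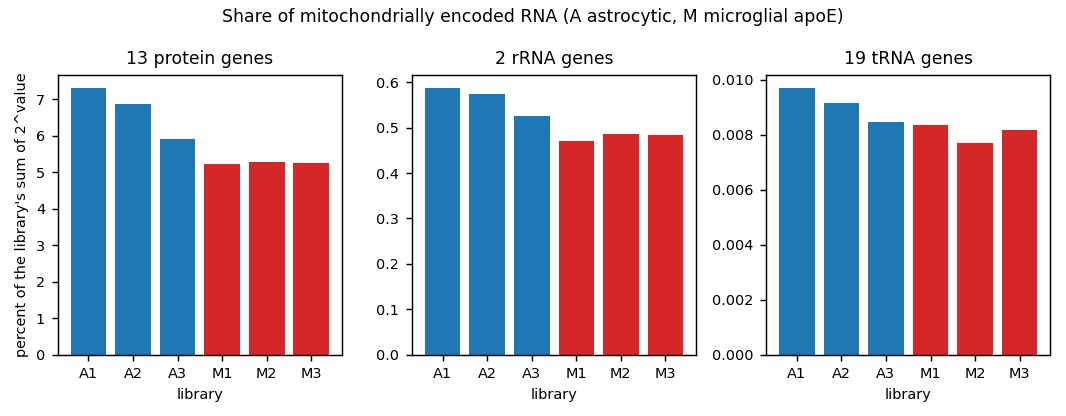
Share of each library's summed 2^value (%, vertical axis, a separate scale in each panel) taken by the 13 protein genes, the 2 rRNA genes and the 19 tRNA genes with a value. Each bar is 1 library, blue for astrocytic (A1 to A3) and red for microglial apoE (M1 to M3); protein gene shares are 5.93% to 7.32% in the blue bars and 5.23% to 5.28% in the red bars.

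Of the 24 members tested, 5 were called lower with microglial apoE and 0 higher by limma with Benjamini-Hochberg adjustment over all genes tested (adjusted p under 0.05). Over all genes tested 11.8% were called lower and 24.9% in either direction. At an unadjusted p under 0.05, 17 members were lower, beside 17.8% of all genes tested, and 0 higher: 13 protein genes, 2 rRNAs and 2 tRNAs. With limma without its trend and robust options 16 were called lower, 12 of them protein genes, beside 11.1%, and 0 higher. The 5 were mt-Nd1, mt-Co1, mt-Rnr1, mt-Rnr2 and mt-Te, that is 2 of 13 protein genes, 2 of 2 rRNAs and 1 of 9 tRNAs. The median log2 difference was -0.43 for the protein genes, -0.23 for the rRNAs and -0.05 for the 9 tRNAs, beside -0.00057 over all genes tested. In the same order, the class mean log2 values with astrocytic apoE were 14.3, 15.6 and 6.70. As the deposited scale shrinks differences of weakly measured genes, these medians compare classes at unlike levels. The mean was lower with microglial apoE for 13 of 13 protein genes, 2 of 2 rRNAs and 8 of 9 tRNAs. In 15 of the 24 members every microglial library was below every astrocytic one, which held for 18.8% of all genes tested. These were 12 of the 13 protein genes (not mt-Atp8), both rRNAs and mt-Te.

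The number of calls depended on single libraries. Without astrocytic replicate 3, 19 of 24 members were called lower (13 protein genes, 2 rRNAs and 4 tRNAs), beside 14.4% of all genes in that fit. Without astrocytic replicate 1 it was 9, beside 8.38%, and without microglial replicate 2 it was 2, mt-Tl1 and mt-Te, beside 10.2%. Without astrocytic replicate 3 the class medians were -0.52, -0.29 and -0.07 in the order protein, rRNA and tRNA.

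**Figure D2:**
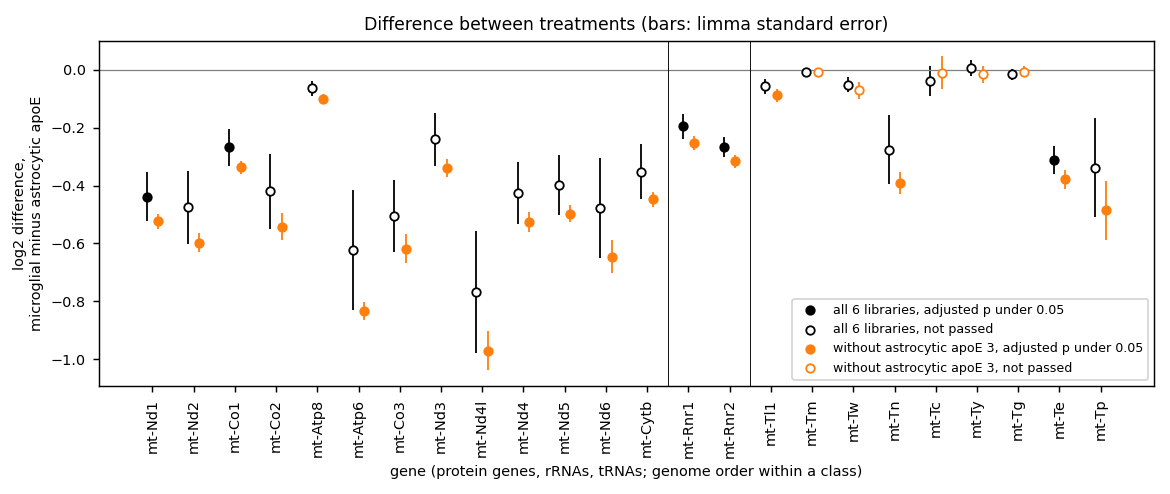
Log2 difference (microglial minus astrocytic apoE, vertical axis) of the 24 tested members in genome order within each class, with limma standard errors as bars, from all 6 libraries (black) and without astrocytic replicate 3 (orange). Filled points have an adjusted p under 0.05; 5 black and 19 orange points are filled, and all of them lie below 0.

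Complex I, the entry point for electrons from NADH, has 7 subunits encoded in mitochondrial DNA, mt-Nd1 to mt-Nd6 and mt-Nd4l. Their median log2 difference was -0.44. Of the 7, 1 was called lower, near the 11.8% of all genes tested, and in 7 of 7 the microglial libraries lay below the astrocytic ones, beside 18.8% of all genes tested. mt-Nd1 (chrM:2751-3707, plus strand, GRCm38), a subunit of the membrane arm next to the quinone site, had log2 values of 17.33, 17.26 and 17.04 with astrocytic and of 16.75, 16.80 and 16.75 with microglial apoE. All 3 astrocytic libraries were higher, with the third the lowest of them. The difference was -0.44 (SE 0.085, adjusted p = 0.025), 1.36-fold higher with astrocytic apoE, and the call was kept in 2 of the 6 fits with 1 library left out. The adjusted p was 0.052 without astrocytic replicate 2 and 0.065, 0.084 and 0.064 without microglial replicates 1, 2 and 3.

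mt-Nd4l (chrM:9877-10173) encodes the smallest of the complex I subunits made in mitochondria and had the widest difference of all members. Its log2 values were 11.75, 11.62 and 11.07 against 10.81, 10.60 and 10.73, and the difference was -0.77 (SE 0.21, adjusted p = 0.070). The groups did not overlap, yet the drop from astrocytic replicate 2 to replicate 3 was wider than that from replicate 3 to the highest microglial library. The reading frame of mt-Nd4l runs into that of mt-Nd4, and the sequence is shown because reads from the shared end and from the common mRNA can be counted for either gene. It is the GENCODE release M21 transcript, 5′ to 3′, with the 7 bases shared with mt-Nd4 in capitals.
mt-Nd4l: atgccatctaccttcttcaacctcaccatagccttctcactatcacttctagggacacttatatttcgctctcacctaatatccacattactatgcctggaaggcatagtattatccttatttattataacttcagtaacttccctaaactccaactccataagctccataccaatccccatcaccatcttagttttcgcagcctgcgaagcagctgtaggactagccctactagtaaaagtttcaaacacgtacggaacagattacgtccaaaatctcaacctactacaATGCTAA

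mt-Nd4 (chrM:10167-11544), the partner on that mRNA, had log2 values of 17.18, 17.03 and 16.81 against 16.55, 16.61 and 16.58. The groups did not overlap and the difference was -0.43 (SE 0.106, adjusted p = 0.054). Of the other complex I genes, mt-Nd2 differed by -0.48 (adjusted p = 0.064), mt-Nd5 by -0.40 (adjusted p = 0.062) and mt-Nd3 by -0.24 (adjusted p = 0.13). mt-Nd6 (chrM:13552-14070) is the one protein gene on the minus strand, and 14 bases of it face mt-Nd5 on the plus strand. It had 14.91, 14.78 and 14.35 against 14.12, 14.21 and 14.28, so astrocytic replicate 3 was nearer to the microglial libraries than to the other astrocytic ones. Its difference was -0.48 (SE 0.17, adjusted p = 0.13). Whether strand was used in counting is not given in the sources used here, so reads of mt-Nd6 and of transcripts from the opposite strand cannot be told apart. The level of mt-Nd6 against the mean of the 12 plus-strand protein genes of the same library was 0.50, 0.49 and 0.33 against 0.29, 0.39 and 0.45 (log2), and the groups overlapped.

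mt-Cytb (chrM:14145-15288), the single complex III subunit made in mitochondria, had log2 values of 17.70, 17.61 and 17.38 against 17.19, 17.23 and 17.21. The groups did not overlap and the difference was -0.35 (SE 0.095, adjusted p = 0.065). Cytochrome oxidase, complex IV, has 3 such subunits, with a median difference of -0.42 and 1 of 3 called lower, beside 11.8% of all genes tested. mt-Co1 (chrM:5328-6872), its catalytic core and the member with the highest level, had 18.92, 18.86 and 18.68 against 18.56, 18.55 and 18.55. Every astrocytic library was higher. The difference was -0.27 (SE 0.063, adjusted p = 0.033), a 1.20-fold higher level with astrocytic apoE, and it was not called without microglial replicate 2 (adjusted p = 0.16). mt-Co2, which carries the copper site that receives electrons from cytochrome c, had 14.10, 13.91 and 13.64 against 13.46, 13.46 and 13.46, with a difference of -0.42 (adjusted p = 0.092). mt-Co3 differed by -0.50 (SE 0.124, adjusted p = 0.053), also without overlap between the groups.

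The ATP synthase has 2 subunits made in mitochondria, with a median difference of -0.34. By limma 0 of 2 were called, and 2 of 2 were lower at an unadjusted p under 0.05. Over all genes tested these shares were 11.8% called lower and 17.8% lower at that unadjusted p. mt-Atp6 (chrM:7927-8607), part of the proton channel, had log2 values of 14.58, 14.48 and 13.90 against 13.69, 13.65 and 13.75. Astrocytic replicates 1 and 2 stood well above the other 4 libraries. The difference was -0.62 (SE 0.21, adjusted p = 0.11). mt-Atp8 (chrM:7766-7969), a small subunit that starts the same mRNA, had 4.55, 4.52 and 4.43 against 4.43, 4.44 and 4.43. Its groups overlapped because astrocytic replicate 3 was at the microglial level, and the difference was -0.07 (adjusted p = 0.094). The deposited scale draws weakly measured genes towards their mean, so a small difference at the level of mt-Atp8 says little about its size. The sequence of mt-Atp8 is shown, from the same release and 5′ to 3′, because its last 43 bases, in capitals, are also the start of mt-Atp6, and both genes are carried by a single mRNA, although the deposited values give mt-Atp8 only 111 and mt-Atp6 30627 as 2^value per kb with astrocytic apoE.
mt-Atp8: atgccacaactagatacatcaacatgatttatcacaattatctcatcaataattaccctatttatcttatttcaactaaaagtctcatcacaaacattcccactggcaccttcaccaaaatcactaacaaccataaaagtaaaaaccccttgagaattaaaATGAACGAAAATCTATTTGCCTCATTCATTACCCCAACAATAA

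Per kilobase of gene, the levels of the 15 longer genes covered a wide range. On the scale of 2^value per kb, mt-Co1 was at 300380 with astrocytic and at 248830 with microglial apoE, followed by mt-Cytb (170130 and 132600) and mt-Nd1 (158850 and 116790). The rRNAs came below 7 of the 13 mRNAs, with mt-Rnr1 at 41199 and 35915 and mt-Rnr2 at 40075 and 33280. mt-Nd3 (1990 and 1676) and mt-Atp8 (111 and 106) were the lowest of the protein genes. The order of the 13 protein genes by level per kb was the same in both groups: mt-Co1, mt-Cytb, mt-Nd1, mt-Nd4, mt-Nd2, mt-Nd5, mt-Nd6, mt-Atp6, mt-Co2, mt-Co3, mt-Nd4l, mt-Nd3 and mt-Atp8. Of the summed 2^value of the 13 protein genes, mt-Co1 took 38.0% with astrocytic and 40.5% with microglial apoE.

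**Figure D3:**
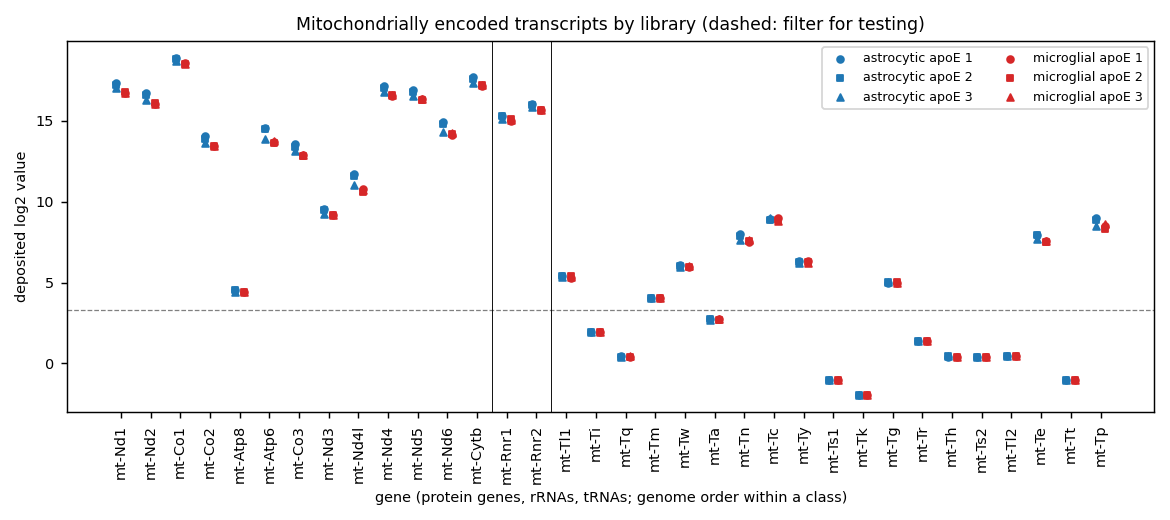
Deposited log2 value (vertical axis) of the 34 members with a value, in genome order within each class (13 protein genes, 2 rRNAs, 19 tRNAs, separated by lines). Blue marks are the 3 astrocytic and red marks the 3 microglial libraries, and the dashed line at 3.322 is the level a gene had to reach to be tested; 10 tRNAs lie below it.

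The 12S and 16S rRNAs, the RNA cores of the small and large mitochondrial ribosome subunits, were both called lower with microglial apoE. mt-Rnr1 (12S, chrM:70-1024) had log2 values of 15.34, 15.30 and 15.15 against 15.03, 15.11 and 15.06. mt-Rnr2 (16S, chrM:1094-2675) had 16.02, 15.98 and 15.85 against 15.66, 15.69 and 15.71. In both, the 3 microglial libraries lay below the 3 astrocytic ones, and astrocytic replicate 3 was the lowest of its group. The difference was -0.20 for mt-Rnr1 (SE 0.044, adjusted p = 0.0086) and -0.27 for mt-Rnr2 (SE 0.035, adjusted p = 3.5e-05), or 1.15-fold and 1.20-fold higher levels with astrocytic apoE. Neither was called without microglial replicate 2 (adjusted p = 0.12 and 0.053), and both were called in the other 5 fits with 1 library left out. The labels do not state whether rRNA was removed or polyadenylated RNA selected, so the rRNA values give the level in these libraries and not the cellular rRNA content.

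The rRNAs had the smaller difference beside the mRNAs. Within each library, the mean log2 value of the 2 rRNAs minus that of the 13 mRNAs was 1.23, 1.31 and 1.46 with astrocytic apoE and 1.50, 1.56 and 1.52 with microglial apoE. The groups did not overlap, and astrocytic replicate 3 stood next to the microglial libraries. The value of mt-Rnr2 minus mt-Rnr1 was 0.68, 0.68 and 0.70 against 0.63, 0.58 and 0.65, again without overlap, but here astrocytic replicate 3 was the farthest from the microglial libraries. Both comparisons are descriptions of 3 against 3 libraries with no test. Among mRNAs, mt-Co1 minus mt-Nd1 was 1.59, 1.60 and 1.64 against 1.80, 1.75 and 1.80, so these 2 abundant mRNAs stood farther apart in every microglial library. mt-Cytb minus mt-Nd1 was 0.37, 0.35 and 0.34 against 0.44, 0.42 and 0.46, also without overlap. mt-Nd5 minus mt-Nd1 was -0.44, -0.49 and -0.51 against -0.40, -0.51 and -0.41, and here the groups overlapped.

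The tRNAs carry amino acids to the mitochondrial ribosome and mark the sites where the precursor RNA is cut. Of the 19 with a value, 10 lay below the level for testing, with differences from -0.0042 to 0.00031, and values this low are held near their mean by the deposited scale. The 9 tested tRNAs fell on both strands. The 4 on the plus strand (mt-Tl1, mt-Tm, mt-Tw and mt-Tg) had a median difference of -0.03 with 0 called by limma (1 lower at an unadjusted p under 0.05). The 5 on the minus strand (mt-Tn, mt-Tc, mt-Ty, mt-Te and mt-Tp) had a median of -0.28 with 1 called. Over all genes tested 11.8% were called lower and 17.8% were lower at that unadjusted p. Among the tested tRNAs, those on the minus strand also had the higher levels per length, from 1161 (mt-Ty) to 7432 (mt-Tc) as 2^value per kb with astrocytic apoE, against 243 (mt-Tm) to 979 (mt-Tw) for those on the plus strand. Their mean log2 values with astrocytic apoE were 6.28 (mt-Ty) to 8.94 (mt-Tc), against 4.07 (mt-Tm) to 6.03 (mt-Tw) on the plus strand. Since the deposited scale shrinks differences of weakly measured genes, strand and level cannot be told apart in this contrast. As for mt-Nd6, reads of minus-strand tRNA genes and of transcripts opposite to them cannot be told apart. The sequences of the 5 are shown because the widest differences among the tested tRNAs (mt-Tp, mt-Te and mt-Tn) were all on this strand. They are GENCODE release M21 genes on GRCm38, minus strand, 5′ to 3′, with the anticodon in capitals.
mt-Te: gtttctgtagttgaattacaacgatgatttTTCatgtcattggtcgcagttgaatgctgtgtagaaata
mt-Tp: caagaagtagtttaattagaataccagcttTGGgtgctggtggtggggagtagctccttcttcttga
mt-Tn: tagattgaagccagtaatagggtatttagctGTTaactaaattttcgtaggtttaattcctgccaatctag
mt-Tc: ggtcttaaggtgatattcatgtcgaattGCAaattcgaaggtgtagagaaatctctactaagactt
mt-Ty: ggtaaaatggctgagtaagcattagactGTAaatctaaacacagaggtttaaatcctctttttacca

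mt-Te (chrM:14071-14139), the tRNA for glutamate, lies between mt-Nd6 and mt-Cytb. It had log2 values of 7.92, 7.93 and 7.73 with astrocytic and of 7.56, 7.50 and 7.59 with microglial apoE, and all 3 astrocytic libraries were higher. The difference was -0.31 (SE 0.049, adjusted p = 5.4e-04), 1.24-fold higher with astrocytic apoE. It was the only member called in all 6 fits with 1 library left out, with a highest adjusted p of 0.0072. mt-Tp (chrM:15356-15422), the tRNA for proline, had a difference of about that size, with 9.02, 8.89 and 8.51 against 8.51, 8.30 and 8.60. Here astrocytic replicate 3 lay among the microglial libraries and the test was not passed (-0.34, SE 0.17, adjusted p = 0.25). mt-Tn (chrM:5089-5159), for asparagine, had 8.02, 7.90 and 7.62 against 7.54, 7.54 and 7.63, a difference of -0.28 (adjusted p = 0.19). Its groups overlapped only through astrocytic replicate 3 and microglial replicate 3.

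mt-Tc and mt-Ty, the tRNAs for cysteine and tyrosine, lie beside mt-Tn on the same strand (chrM:5192-5257 and chrM:5260-5326). mt-Tc had 8.962, 8.853 and 8.996 against 9.02, 8.84 and 8.83, and mt-Ty had 6.33, 6.28 and 6.24 against 6.33, 6.29 and 6.24. The groups of both overlapped throughout, with differences of -0.04 (adjusted p = 0.63) and 0.0049 (adjusted p = 0.92). mt-Tc was the one tested member other than mt-Tg in which astrocytic replicate 3 was the highest of its group. The plus-strand tRNAs mt-Tl1, mt-Tw, mt-Tm and mt-Tg differed by -0.06, -0.05, -0.01 and -0.02 (adjusted p = 0.10, 0.15, 0.73 and 0.54).

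The 3 astrocytic libraries were spread much more widely than the 3 microglial ones in the protein genes and rRNAs. The mean log2 value of the 13 protein genes was 14.44, 14.33 and 14.04 with astrocytic apoE, a range of 0.41, and 13.85, 13.84 and 13.87 with microglial apoE, a range of 0.02. For the rRNAs the means were 15.68, 15.64 and 15.50 against 15.34, 15.40 and 15.38, and for the tested tRNAs 6.76, 6.71 and 6.61 against 6.59, 6.55 and 6.59. The order of the astrocytic libraries was the same in all 3 class means, with replicate 1 highest and replicate 3 lowest. Gene by gene, replicate 3 was the lowest astrocytic library in 13 of 13 protein genes, 2 of 2 rRNAs and 6 of 9 tested tRNAs, beside 35.7% of all genes tested. It was still above every microglial library in 12 of 13 protein genes and in 2 of 2 rRNAs. Even so it was nearer to the microglial mean than to the mean of astrocytic replicates 1 and 2 in 12 of 13 protein genes and in 1 of 2 rRNAs.

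**Figure D4:**
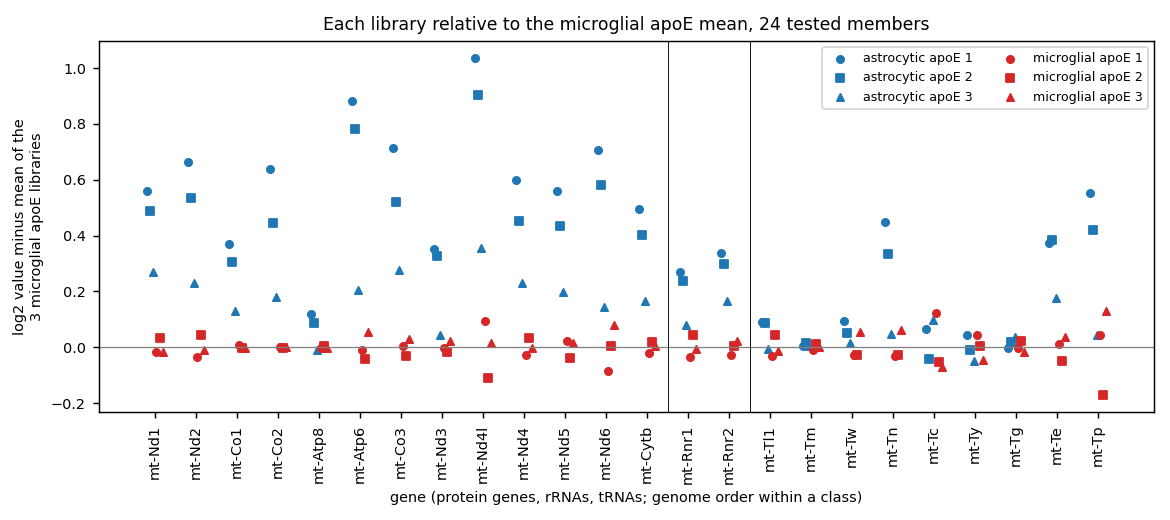
Log2 value of each library minus the mean of the 3 microglial libraries (vertical axis) for the 24 tested members, in genome order within each class. Blue marks are astrocytic and red marks microglial libraries; in the protein genes the blue triangle (astrocytic replicate 3) is the lowest blue mark in 13 of 13, and the red marks lie close to 0.

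The median SD of the 13 protein genes was 0.186 between the astrocytic and 0.0295 between the microglial libraries. Over all genes tested these medians were 0.0280 and 0.0268, and over the 805 genes tested with a mean value of 12 or more they were 0.0286 and 0.0270. The protein genes thus had a spread near that of other genes in the microglial group and a wider one in the astrocytic group. The astrocytic range exceeded the microglial range in 13 of 13 protein genes, 2 of 2 rRNAs and 5 of 9 tested tRNAs, beside 52.3% of all genes tested. Among the protein genes the astrocytic range went from 0.127 in mt-Atp8 to 0.680 in mt-Atp6 and mt-Nd4l. It was at least 0.2 in 12 of 13 protein genes, 3 of 9 tested tRNAs and 0 of 2 rRNAs, beside 0.89% of all genes tested. Of the 805 genes with a mean of 12 or more, 19 (2.36%) reached that range: 10 were mitochondrial protein genes, 5 were nuclear copies of mitochondrial genes and 4 were other genes. Those 4, named after their values were seen, were Pcsk1n, Eif3f, Fth1 and Cox4i1, in which astrocytic replicate 3 was the highest astrocytic library and the microglial mean was higher. Their differences were 0.23 (adjusted p = 0.13), 0.22 (0.041), 0.33 (0.015) and 0.14 (0.034).

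The cell type markers give a further view of the astrocytic libraries. The mean log2 value was 12.32, 12.34 and 12.34 for the neuronal markers in astrocytic replicates 1 to 3, and 12.57, 12.57 and 12.56 for the astrocyte markers. The markers of dividing cells were at 8.46, 8.45 and 8.40. In these 3 lists the astrocytic libraries stayed within 0.065, beside 0.41 for the mitochondrial protein genes. List means can hide single markers, and the part of the cell mix in the astrocytic spread was not tested. Across the 13 protein genes, the difference between treatments had weak correlations with level, position and length. Pearson's r with the log2 difference was -0.29 for the mean level, -0.06 for the start on the genome and 0.06 for the length (Spearman's rho 0.08, -0.03 and 0.15). With the astrocytic range of the gene it was -0.91 (rho -0.85): genes with the wider spread between the astrocytic libraries had the larger differences, and both measures are computed from the same astrocytic values. These are descriptions across 13 genes that share the same 6 libraries and, for several, the same precursor.

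Several mitochondrial genes have nearly identical copies in the nuclear genome, and reads can be divided between them. On chromosome 1 of GRCm38 (chr1:24611535-24616197, minus strand), 7 unprocessed pseudogenes match mt-Nd4, mt-Nd4l, mt-Nd3, mt-Co3, mt-Atp6, mt-Co2 and mt-Co1. 5 of them have 0 mismatches to the mitochondrial gene over their whole length, Gm28438 has 1 against mt-Nd3 over 345 bases and Gm29216 has 6 against mt-Co1 over 492 bases. The copies carried high values. Gm10925, the copy of mt-Atp6, had log2 values of 14.21, 14.12 and 13.56 against 13.30, 13.33 and 13.28, and Gm28437, the copy of mt-Co3, had 13.65, 13.45 and 12.90 against 12.74, 12.80 and 12.76. Both shared the coarse pattern of their mitochondrial gene, with astrocytic replicates 1 and 2 high and replicate 3 between them and the microglial group. Within the microglial group the order of the libraries differed between gene and copy. The 7 copies differed by -0.75 to -0.20, and in 6 of 7 every microglial library lay below every astrocytic one, beside 18.8% of all genes tested. Only Gm28438 was called (-0.20, SE 0.047, adjusted p = 0.0074), beside 11.8% of all genes called lower, and without astrocytic replicate 3 it was 7 of 7, beside 14.4%.

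The values of mt-Co2, mt-Atp6, mt-Co3, mt-Nd3 and mt-Nd4l, and to a smaller part those of mt-Nd4 and mt-Co1, are therefore uncertain in level. The 5 genes with over 98% of their bases in 50-base words shared with the copies had a median difference of -0.50. The 6 genes with no shared word (mt-Nd1, mt-Nd2, mt-Nd5, mt-Nd6, mt-Cytb and mt-Atp8) had a median of -0.42, so a lower mean with microglial apoE was also measured where no annotated copy on chromosome 1 matches. Only the annotated copies were searched, not the sequence between them. mt-Atp8 lies between mt-Co2 and mt-Atp6, and the stretch between their copies, Gm28661 and Gm10925, was not searched. Whether mt-Atp8 has a match there is therefore unknown. When each gene was summed with its copy before the fit, 5 members were called, as without the sum.

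**Figure D5:**
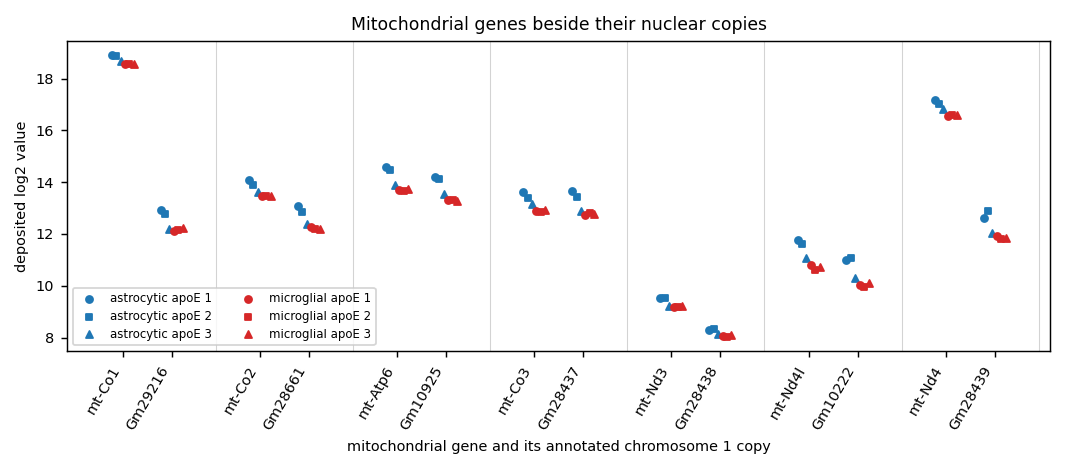
Deposited log2 value (vertical axis) of the 7 mitochondrial genes with an annotated copy on chromosome 1, each beside its copy. Blue marks are astrocytic and red marks microglial libraries; in gene and copy alike astrocytic replicates 1 and 2 are the highest libraries, and the groups overlap only in Gm29216, the copy of mt-Co1.

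The nuclear genes that make and handle mitochondrial RNA were examined as a list of 81 genes, all tested. Of these 10 were called higher and 3 lower with microglial apoE, and the median difference was 0.02. Over all 15055 genes tested 1962 were called higher and 1780 lower, so the share of the list called higher was near that of all genes. The largest difference among the 13 called was in Pnpt1, the polynucleotide phosphorylase that degrades mitochondrial RNA. It had log2 values of 9.53, 9.51 and 9.44 against 9.88, 9.94 and 9.92, with every microglial library higher, and rose by 0.42 (SE 0.031, adjusted p = 9.4e-11). Lrpprc, which stabilises mitochondrial mRNAs, had 10.31, 10.32 and 10.41 against 10.46, 10.51 and 10.48 and rose by 0.14 (adjusted p = 0.0014). Polrmt, the mitochondrial RNA polymerase, rose by 0.10 (adjusted p = 0.020) and is named, after its value was seen, as the 1 gene called of 9 in the transcription group. Hsd17b10, a subunit of the enzyme that cuts the 5′ end of tRNAs, and Yrdc, a tRNA-modifying enzyme, rose by 0.11 and 0.12 (adjusted p = 0.0062 and 0.0049). Atad3a, a membrane ATPase tied to the mitochondrial DNA, and Ddx28, a helicase of ribosome assembly, rose by 0.11 each (adjusted p = 0.013 and 0.015). Osgepl1, also a tRNA-modifying enzyme, Rrm2b, a ribonucleotide reductase subunit, and Trnt1, which adds the CCA end to tRNAs, fell by 0.12, 0.10 and 0.09 (adjusted p = 0.0059, 0.012 and 0.024). By group, 2 rose and 2 fell of 23 processing genes, 3 rose of 20 stability and decay genes, 2 rose of 14 rRNA modification genes, and 2 rose and 1 fell of 15 genome replication genes. The number called higher was 5, 4 and 5 without astrocytic replicate 1, astrocytic replicate 2 and microglial replicate 3. Of all genes tested, 9.12%, 9.09% and 10.3% were called higher in those fits.

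The nuclear-encoded subunits of complexes I, III, IV and V were called in both directions. Of 72 listed genes 71 were tested, 13 were called higher and 7 lower with microglial apoE, beside 1962 and 1780 of all 15055 genes tested, and the median difference was 0.02. The share called lower was near that of all genes. The mean log2 value of the list was 10.89, 10.90 and 10.93 against 10.89, 10.97 and 10.90, so the groups overlapped. Those that rose with the smallest p were Uqcrq and Uqcrc1 of complex III (0.14 and 0.10), Cox5b of complex IV (0.17), Ndufv1 and Ndufa2 of complex I (0.14 and 0.12) and Atp5a1 of complex V (0.10), all at adjusted p of at most 0.0060. Ndufc2 fell by 0.17 (adjusted p = 6.2e-05), Atp5j2 and Uqcrh by 0.13 each, Atp5l by 0.10, Ndufc1 by 0.09 and Cox8a by 0.08. By complex, 7 rose and 2 fell of 36 genes of complex I, 2 and 1 of 9 of complex III, 2 and 1 of 11 of complex IV, and 2 and 3 of 15 of complex V. These are small changes on subunits of the same complexes, and both directions depended on single libraries. Without astrocytic replicates 1, 2 and 3 in turn 7, 6 and 22 were called higher, and 7 without microglial replicate 2. In the same order of fits, 9.12%, 9.09%, 15.8% and 11.5% of all genes tested were called higher. Calls of lower genes numbered 3 and 13 without astrocytic replicates 2 and 3, and 3, 15 and 2 without microglial replicates 1, 2 and 3. The shares of all genes called lower in the same order of fits were 7.89%, 14.4%, 8.82%, 10.2% and 9.06%. No test compared the nuclear with the mitochondrial subunits.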

How the data were processed

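The tables deposited by the authors hold 1 log2 value per gene symbol and sample. Named in the submitters' processing notes are GRCm38, HISAT2, FastQC, DESeq2 and featureCounts, without roles or versions. Annotation and strand use in counting are not stated there. The same 21031 symbols stood at 0 in all 6 libraries and low values lay close to their mean over libraries, as in a regularized logarithm; the transformation is inferred from the values. It shrinks differences and spread of weakly measured genes, and the depth of the libraries is unknown.

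The log2 values entered limma 3.58.1 (R 4.3.3; trend and robust options) unchanged, for 15055 genes reaching the log2 of 10 in at least 3 libraries, with Benjamini-Hochberg adjustment over all of them and calls at adjusted p under 0.05. Groups came from the treatment label. Class medians, ranges and within-library differences were computed without a test. The procedure was tested on simulated data. Smallest median absolute difference between any pair of libraries was 0.0256 (log2), so no library was a repeat of another. Python 3.11.15 was used for tables (pandas 2.3.3, numpy 2.4.6) and figures (matplotlib 3.10.9). Positions and sequences are from GENCODE release M21 (GRCm38, 1-based), in which 37 of 37 mitochondrial symbols matched. Of the 197 list symbols, 196 were found among the deposited symbols. Copies on chromosome 1 were compared with the genes base by base and by shared words of 50 bases. Text names every mitochondrial member, the copies and the cell type markers, and up to 6 called genes per direction of the nuclear RNA machinery and respiratory chain lists by smallest p. Members and lists were chosen with earlier results of these data known. Alternatives were each library left out, the replicate block, median centring, an equal sum of 2^value with or without mitochondrial genes, no filter, a filter of 50, limma without trend and robust, and, chosen after seeing the data, genes summed with their copy.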

Additional observations from a re-analysis of the deposited data

How the results depend on the processing

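The median differences of the protein genes (-0.52 to -0.34 with 1 library left out, -0.44 to -0.41 under the other settings) and of the rRNAs (-0.29 to -0.20 and -0.25 to -0.22) kept their direction in each setting that leaves the mitochondrial mean in the values, while that of the tRNAs became -0.0041 without a filter and -0.16 with a filter of 50. Members called lower numbered 5, against 8 with median centring, 16 with limma without trend and robust, and 2 to 19 with 1 library left out; 0 were called higher in each of these settings. Of 332 values for single members under the alternatives, 278 kept direction and side of the threshold, 41 passed it newly, 8 lost it and 5 changed sign: mt-Tm with an equal sum (0.0057), and mt-Ty with median centring (-0.014), an equal sum without mitochondrial genes (-0.0053), and without astrocytic replicate 3 and microglial replicate 1 (-0.016 each; 0.029 at most with 1 library left out). The cause was not tested.

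Scaling moved the split of all genes called from 1962 higher and 1780 lower to 1478 and 2765 with median centring, 2516 and 1318 with an equal sum of 2^value, and 1661 and 2327 with an equal sum without mitochondrial genes. In the nuclear respiratory list, calls of lower genes went from 7 to 15, 3 and 12 under these scalings, and to between 2 and 15 with 1 library left out (higher 6 to 22). The RNA machinery list had 4 to 9 higher. Over all genes, 7.89% to 14.4% were called lower and 9.09% to 15.8% higher with 1 library left out. A fit relative to the mean of the 13 protein genes called 96.0% of all genes tested. Its calls are therefore given only as counts beside the share of all genes, and no result was read from them. This fit removes the protein genes' own mean, so its class medians are -0.0064 (protein), 0.19 (rRNA) and 0.37 (tRNA), beside 0.42 over all genes tested. With the median of the 13 as reference they were 0.052, 0.25 and 0.43, beside 0.48. Members called higher were 7 (17 with no filter, 3 with a filter of 50, 0 to 13 with 1 library left out). The shares of all genes called higher were 95.9% (97.7%, 95.1%, and 2.08% to 99.6%). Members called lower were 1 (0 with the median of the 13 as reference, 0 to 2 with 1 library left out), beside 0.0465% of all genes (at most 0.0996% in these other fits).

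Same-numbered libraries did not deviate together (correlations of deviations 0.039, -0.12 and -0.19), and not every library correlated best with its own number. With so few libraries per group, these correlations cannot decide whether the samples were paired, so pairing is unknown. With the replicate block 9 members were called lower, and over all genes 1778 were higher and 1609 lower. The labels tie no sample to a culture, and without counts the depth behind mt-Atp8 and the tRNAs cannot be given.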
